A study of Capra hircus with 2 samples.

Results

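The 6 S100 genes S100A4, S100A6, S100A8, S100A9, S100A10 and S100A11 were taken by symbol from the 27137 features of a single-cell count matrix of Liaoning cashmere goat skin, and all 6 were present, together with 10 other S100 genes that are used here for comparison. The skin came from healthy goats in anagen, the growth phase of the hair follicle, and was dissociated and captured with the 10x Genomics 3' kit as 1 library of a coarse type goat (CT-LCG) and 1 library of a fine type goat (FT-LCG). Each cell was assigned to its library with the deposited cell table, because the fibre type of each goat is not part of the sample labels. That table kept 3443 cells of CT-LCG (27890472 UMIs, median 2314 per cell) and 9608 of FT-LCG (85400323 UMIs, median 6121.5 per cell), where a UMI stands for 1 captured RNA molecule. With 1 goat and 1 library per fibre type, the fibre type, the goat and the library cannot be told apart, so no test was run, and the intervals in brackets are 95% intervals (exact Poisson for levels, Clopper-Pearson for shares) that cover counting error only.

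S100 proteins are small proteins with EF-hand motifs that mostly act as dimers. Most of them, but not all, bind calcium and bind their target proteins when calcium rises. Many of their genes lie in the epidermal differentiation complex, beside genes of the cornified envelope. S100A8 and S100A9 pair to form calprotectin, which sequesters zinc and manganese, is abundant in neutrophils and monocytes, and is induced in stressed keratinocytes. S100A10 binds annexin A2 at the plasma membrane, S100A11 binds annexin A1 and takes part in keratinocyte differentiation, S100A4 binds non-muscle myosin and is known from fibroblasts and lymphocytes, and S100A6 binds the calcyclin-binding protein CACYBP. In the RefSeq goat table (ARS1.2) the 6 members lie on chromosome 3, with S100A10 and S100A11 at one end, S100A9 and S100A8 past the loricrin gene, and S100A6 and S100A4 further on.

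The cells were grouped without the S100 genes into 18 clusters and 4 compartments. The epithelial compartment held 3131 CT-LCG and 9186 FT-LCG cells, the stromal compartment 99 and 117, the endothelial compartment 61 and 161, and the immune compartment 152 and 144. The compartments held their defining markers: COL1A1 was at 43.5 and 90.1 UMIs per 10000 UMIs in stromal cells of CT-LCG and FT-LCG and at most at 0.185 in any other compartment, and PECAM1 was at 14.4 and 9.29 in endothelial cells. Several features of these compartments bear on the S100 values. The stromal compartment was 1 fibroblast-like cluster, in which the papilla gene RSPO3 was at 11.7 (CT-LCG) and 1.51 (FT-LCG), while the muscle gene ACTA2 was at 1.28 and 13.4. The immune compartment held 58 and 49 T cell-like, 30 and 77 macrophage or dendritic-like, and 64 and 18 mast cell-like cells, and immune cells carried the keratin KRT14 at 7.35 (CT-LCG) and 200.2 (FT-LCG). In FT-LCG the endothelial cells also held TCHH at 75.5, against 4.95 in the epithelial cells. Cell barcodes of the kept cells shared between the libraries numbered 11.

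S100A8 and S100A9 were the members with the widest difference between the libraries. S100A8 was at 16.1 UMIs per 10000 (15.98 to 16.29) in CT-LCG epithelial cells and at 0.686 (0.668 to 0.704) in FT-LCG epithelial cells, a 23.5-fold difference. S100A9 was at 5.59 (5.50 to 5.68) and 0.394 (0.380 to 0.407), a 14.2-fold difference. CT-LCG was the high library for both calprotectin genes and the intervals were far apart. Of 2413 genes with a mean epithelial level of at least 0.5, 7.96% were at least 2-fold higher in CT-LCG, and 2 of the 6 members were, S100A8 and S100A9. After each cell was thinned to 1000 UMIs, which left out 351 shallower epithelial cells of CT-LCG and 999 of FT-LCG, 47.1% (45.3 to 49.0) of CT-LCG epithelial cells and 3.87% (3.46 to 4.31) of FT-LCG epithelial cells held a UMI of S100A8. The unthinned shares were 71.7% and 11.2%, at median depths of 2121 and 6389 UMIs. In endothelial cells, which should lack the gene, the thinned shares were 25.5% and 0% (up to 2.56% by the interval), at median depths of 1713 and 2656. S100A9 had thinned shares of 25.97% and 2.67% in epithelial cells and of 23.5% and 0.704% in endothelial cells, so for S100A9 the CT-LCG epithelial share lay close to the endothelial one.

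**Figure D1:**
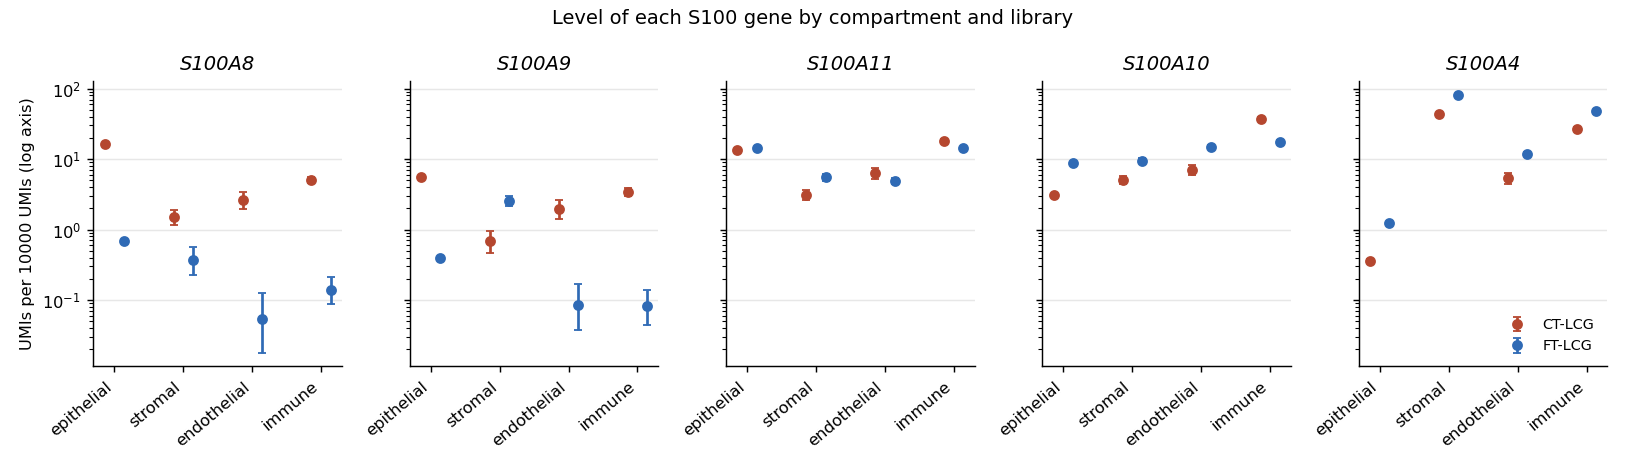
Level of 5 S100 genes (UMIs per 10000 UMIs, log axis) in epithelial, stromal, endothelial and immune cells of CT-LCG and FT-LCG; points are summed levels of 1 library and bars are exact Poisson 95% intervals. S100A8 reads 16.1 in CT-LCG and 0.686 in FT-LCG epithelial cells, S100A4 reads 42.9 and 81.5 in stromal cells, and S100A11 stays between 13.3 and 14.6 in epithelial cells; S100A6 is not drawn because it had 5 UMIs in all.

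Among the epithelial clusters of CT-LCG, S100A8 was highest in cluster 8, which is granular layer-like, at 25.8 (25.2 to 26.4), and in the suprabasal-like cluster 4, at 24.9 (24.6 to 25.3). The order of these clusters rested on 1 cell: without the cell with the most S100A8 in each, cluster 8 was at 21.4 and cluster 4 at 24.1. It was at 4.57 (4.31 to 4.84) in the basal-like cluster 1 and at 1.26 in cluster 5 (outer root sheath or bulge-like). The same order did not hold in FT-LCG, where S100A8 was at 0.179 in cluster 8, 1.26 in cluster 4, 0.373 in cluster 1 and 0.276 in cluster 5. The highest FT-LCG level was 1.67 in cluster 2, an unnamed epithelial cluster with LY6D and KRT9 among its 10 leading genes. S100A9 ran parallel in CT-LCG, with 9.82 in cluster 8, 8.26 in cluster 4, 1.83 in cluster 1 and 0.996 in cluster 5. Clusters 4, 8 and 2 held 45.6%, 17.3% and 20.4% of the S100A8 UMIs of CT-LCG, beside 28.3%, 10.4% and 22.2% of all its UMIs.

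The S100A8 and S100A9 UMIs of CT-LCG epithelial cells were concentrated in few cells. The 1% of CT-LCG epithelial cells with the most S100A8 held 36.9% of its UMIs, and the top 10% held 86.2%. These shares use unthinned UMIs of cells that differ in depth. They were 43.8% and 85.1% for S100A9, 37.2% and 82.6% for S100A4, 17.6% and 61.2% for S100A10 and 8.03% and 46.2% for S100A11. Only 478 of the 3131 cells held any S100A4 UMI, so its top 10% would hold most of them under any spread. After thinning, 5.32% of the cells held a UMI of S100A4, where an even spread over cells would give 5.90%. At a thinned mean of 0.061 UMIs per cell, this share is mostly set by the mean and is a weak measure of spread. The comparison therefore cannot decide whether S100A4 was concentrated, and the 82.6% of its top 10% cannot either. The 37.2% in its top 1%, 32 cells, is not bound in this way and was near the 36.9% of S100A8. In FT-LCG the S100A8 shares were 58.3% and 98.0%. There 1031 of 9186 epithelial cells held any S100A8 UMI, so the top 10%, 919 cells, would hold most of them under any spread. The 98.0% is therefore no measure of concentration. An even spread of the thinned UMIs over cells would have put a UMI of S100A8 in 89.4% of CT-LCG cells in cluster 8 and in 87.4% in cluster 4, and 41.3% and 48.9% of cells had one. In the shallow, unnamed cluster 0 (median 1071 UMIs per CT-LCG cell), 69.4% of cells held a UMI against 75.2% for an even spread, at a level of 14.1. S100A8 was thus nearer to an even spread in the shallow cluster 0 than in the deep differentiated clusters. The single CT-LCG cell with the most S100A8 was in cluster 8 and held 1333 UMIs, 17.9% of those of the cluster.

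**Figure D2:**
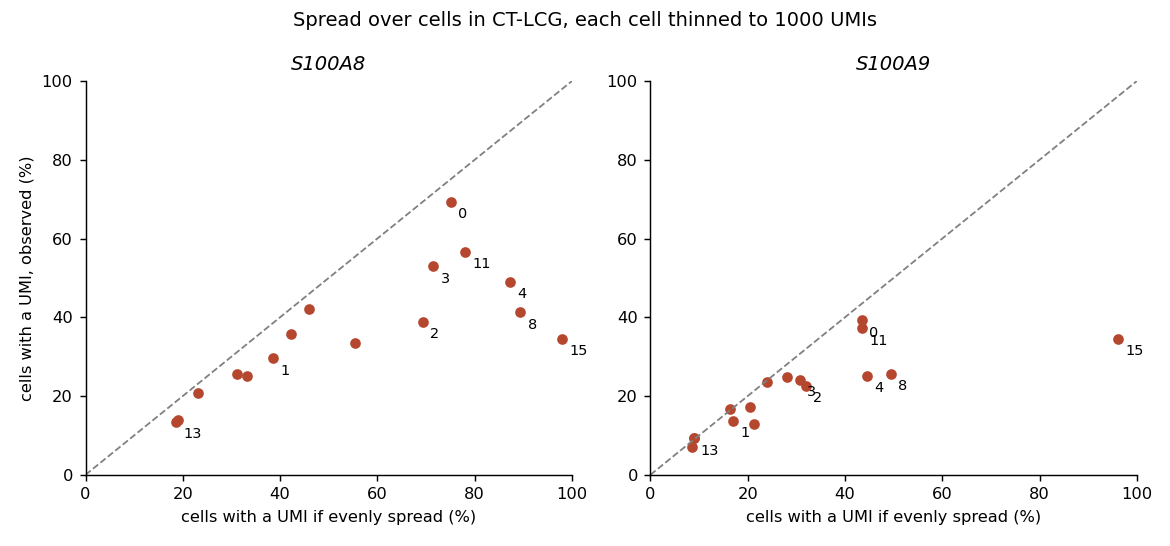
Share of CT-LCG cells with a UMI of S100A8 or S100A9 after thinning to 1000 UMIs (y axis, percent) against the share expected if the same UMIs were spread evenly over cells (x axis, percent), 1 point per cluster with some clusters numbered; the dashed line marks equality. Cluster 0 lies near the line for S100A8 (69.4% against 75.2%), while cluster 8 (41.3% against 89.4%) and cluster 15 (34.5% against 97.9%) lie far below it.

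How often S100A8 and S100A9 were found in the same cells varied between clusters. In cluster 4 of CT-LCG, 43.0% of the thinned cells with a UMI of S100A8 also had one of S100A9, against 7.88% of cells without S100A8. In cluster 8 the shares were 43.9% and 12.8%. In the shallow cluster 0 they were 40.5% and 36.3%, so there the shares with S100A9 were close. CT-LCG epithelial cells held 2.89 S100A8 UMIs per S100A9 UMI and FT-LCG epithelial cells held 1.74. Over the 16 clusters with at least 20 cells in each library, taken in both libraries (32 points that share depth and free RNA within a library), the log2 levels of S100A8 and S100A9 had a Pearson r of 0.94. The points were not centred by library. The median log2 difference, CT-LCG minus FT-LCG, over the 16 clusters was 4.18 for S100A8 and 4.02 for S100A9. This r therefore includes the difference between the libraries.

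The gene most like S100A8 over these 32 points was LOC102169149 (r = 0.97), a protein-coding locus without a symbol that lies between S100A9 and S100A8 in the RefSeq order, and it was also first for S100A9 (r = 0.93). Epithelial cells held LOC102169149 at 18.6 (CT-LCG) and 0.728 (FT-LCG), so its r values include the difference between the libraries too. LOC108638630 and SLC25A36 followed for S100A8 (r = 0.89 and 0.87; the former is a lncRNA), and SLC25A36 and VEGFA for S100A9 (r = 0.86 and 0.83). Closely related S100 copies can share reads, and the counting of such reads is not given in the sources used here.

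Free RNA from broken keratinocytes can reach every droplet, so the endothelial level of a member was set against the level that free epithelial RNA would give. That level was the epithelial level times the median ratio of 9 keratin and cornification genes between endothelial and epithelial cells, which was 0.281 in CT-LCG (0.175 to 0.373 over the 9 genes) and 0.173 in FT-LCG (0.102 to 0.216). For S100A8 the endothelial level of 2.59 (1.95 to 3.36) in CT-LCG was 0.571 times the free RNA level of 4.54, and the 0.0539 of FT-LCG was 0.454 times it. S100A9 was at 1.94 and 0.0862, or 1.24 and 1.27 times its free RNA level. As a point value, S100A8 in endothelial cells was thus below the keratin-based level in both libraries, and S100A9 was near it. The FT-LCG values rest on 5 UMIs of S100A8 and 8 of S100A9 in 161 cells, too few to place them firmly. S100A4 and S100A10 were the 2 members at least 2-fold above their free RNA level in both libraries, against 79.5% of 2604 tested genes.

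**Figure D3:**
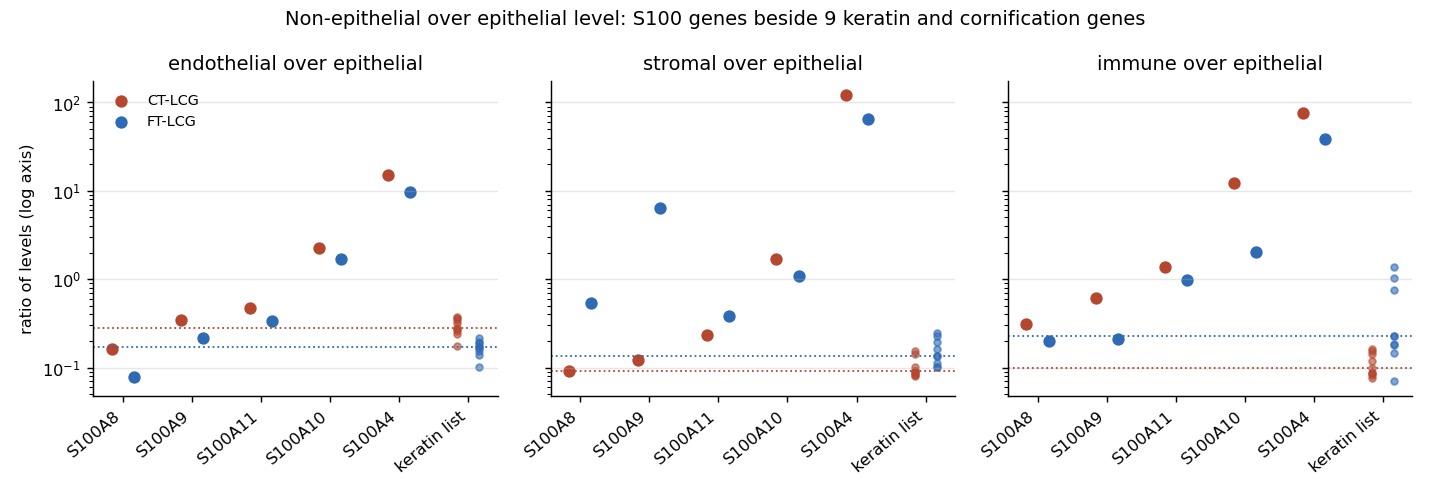
Ratio of the endothelial, stromal or immune level to the epithelial level (log axis) for 5 S100 genes, beside the same ratio for each of 9 keratin and cornification genes; dotted lines are the medians of those 9 genes in each library. In endothelial cells S100A8 lies below the keratin medians of 0.281 (CT-LCG) and 0.173 (FT-LCG), while S100A4 lies at 15.03 and 9.61; in stromal cells S100A8 of CT-LCG lies at 0.0923 beside a median of 0.0906.

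In stromal cells S100A8 was at 1.49 (1.16 to 1.87) for CT-LCG and 0.372 (0.230 to 0.569) for FT-LCG. The CT-LCG value was 0.0923 times the epithelial level, and the 9 keratin genes had a median ratio of 0.0906 there, so the stromal S100A8 of CT-LCG was 1.02 times its free RNA level. In FT-LCG the stromal ratio was 0.542 beside a keratin median of 0.137, from 21 UMIs in 10 cells. Epithelial over stromal folds of S100A8 were 10.8 in CT-LCG and 1.84 in FT-LCG. S100A9 had 33 stromal UMIs in 29 cells of CT-LCG (0.682 per 10000) and 143 UMIs in 9 cells of FT-LCG (2.53 per 10000), so its epithelial over stromal fold was 8.19 in CT-LCG while in FT-LCG the stromal level was 6.44-fold higher. Of those 143 UMIs, 76.9% were in 2 cells, and 139 were in the 31 FT-LCG cells with at least 3 smooth muscle markers. Without these 31 cells the FT-LCG stromal level of S100A9 was 0.119. The stromal S100A9 of FT-LCG thus came mostly from 2 cells.

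Immune cells held S100A8 at 5.05 (4.54 to 5.60) in CT-LCG and 0.139 (0.0869 to 0.210) in FT-LCG, so the epithelial level was 3.19-fold and 4.94-fold higher. S100A8 was the 1 member of 6 at least 2-fold higher in epithelial than in immune cells in both libraries, against 6.50% of 2601 tested genes. The call of S100A8 was lost after thinning, with means over cells and with a gate on marker genes, while 2 members passed without the neutrophil marker cells described next. S100A9 was at 3.39 and 0.0820 in immune cells, 1.65-fold and 4.80-fold below the epithelial level. The CT-LCG immune value came mainly from the macrophage or dendritic-like cluster 15, with S100A8 at 15.9 (14.1 to 18.01) and S100A9 at 12.7 (11.03 to 14.6). T cell-like cells of CT-LCG had S100A8 at 2.29 and mast cell-like cells at 1.501, which were 0.142 and 0.0931 of the epithelial level beside keratin medians of 0.123 and 0.0867.

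Within cluster 15 of CT-LCG, 7 of the 30 cells had a UMI of a neutrophil marker (CSF3R had 5 UMIs and MMP9 had 6 UMIs in the cluster). These 7 cells held 192 of the 260 S100A8 UMIs and 153 of the 207 S100A9 UMIs, at levels of 90.8 (78.4 to 104.6) and 72.4. These levels rest on few cells. In the cluster 1 cell held 78 of the 260 S100A8 UMIs. The 3 cells with the most of each gene held 66.5% of its UMIs for S100A8 and 74.4% for S100A9. The 7 cells with a neutrophil marker held no UMI of S100A4, which allows a level of up to 1.42 by 3 counts. In the 23 other cells S100A8 was at 4.79 and S100A4 at 44.0. The gate was run after the levels of the cluster were seen. In FT-LCG 1 cell of the cluster had such a marker, with 4 S100A8 UMIs.

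S100A11 was the member with the least difference between the libraries. It was at 13.3 (13.2 to 13.4) in CT-LCG and 14.6 (14.5 to 14.6) in FT-LCG epithelial cells, 1.10-fold higher in FT-LCG. It was the 1 member of 6 at least 2-fold higher in epithelial than in stromal cells in both libraries, with folds of 4.29 and 2.62, against 7.89% of 2726 tested genes. With a gate on marker genes the FT-LCG fold was 1.40, so S100A11 lost this call and S100A8 held it. That gate took a different set of cells. It called 166 CT-LCG and 568 FT-LCG cells stromal, of which 88 and 95 were in the stromal compartment. Without the stromal cells that held 3 or more smooth muscle markers, 3 members passed. In stromal cells S100A11 was at 3.10 (2.63 to 3.64) and 5.56 (4.96 to 6.21), or 2.58 and 2.79 times its free RNA level. Endothelial S100A11 was at 6.28 and 4.89, or 1.68 and 1.94 times its free RNA level. Immune cells had 18.1 and 14.3, or 1.36 and 0.983 times the epithelial level. By immune class, mast cell-like cells were at 27.7 (25.9 to 29.6) in CT-LCG and 18.7 (15.1 to 22.8) in FT-LCG, and T cell-like cells at 12.7 and 21.3, so their order differed between the libraries, although the FT-LCG intervals overlapped. Among epithelial clusters S100A11 ranged from 4.07 and 4.22 in the unnamed cluster 10 to 17.2 in the basal-like cluster 3 of CT-LCG and 22.7 in the suprabasal-like cluster 11 of FT-LCG. It was 10.6 and 8.39 in the granular layer-like cluster. PLP2, BCL11B and FXYD3 were the genes most like it over the 32 points (r = 0.90, 0.87 and 0.83).

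S100A10 was lower in differentiated keratinocytes and higher in FT-LCG. Its epithelial level was 3.05 (2.99 to 3.12) in CT-LCG and 8.74 (8.68 to 8.81) in FT-LCG, a 2.86-fold difference, and the intervals did not overlap. In the basal-like cluster 1 it was at 8.70 (8.34 to 9.06) and 15.3 (15.1 to 15.6), in the suprabasal-like cluster 4 at 1.17 and 3.19, and in cluster 8 (granular layer-like) at 0.947 (0.839 to 1.07) and 1.94 (1.83 to 2.04). The basal-like level was above the granular layer-like one in both libraries. FT-LCG was higher in all 16 clusters compared, and at least 2-fold higher in 8 of them. S100A4 and S100A10 were the 2 members of 6 at least 2-fold higher in FT-LCG epithelial cells, against 4.10% of 2413 tested genes.

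S100A10 was also compared at the same balance of keratins. Epithelial cells with at least 20 UMIs of KRT5, KRT14, KRT1 and KRT10 (3016 of 3131 in CT-LCG and 8758 of 9186 in FT-LCG) were binned by the share of KRT1 and KRT10, the suprabasal keratins, in those UMIs. From the bin below 20% to the bin above 80%, S100A10 fell by steps from 9.17 to 1.58 in CT-LCG and from 13.4 to 3.36 in FT-LCG, and FT-LCG was higher in each of the 5 bins. S100A4 went from 1.02 to 0.225 and from 2.10 to 0.276. S100A8 was highest at the suprabasal end in CT-LCG, at 4.49, 10.2, 9.02, 7.74 and 20.4 over the 5 bins, and went from 0.445 to 0.946 in FT-LCG. S100A8 and S100A10 were thus highest at opposite ends of the axis. S100A9 went from 1.955 to 6.91 in CT-LCG and was at 0.361 and 0.370 at the ends in FT-LCG. S100A11 had no steady trend, with bins from 11.2 to 13.9 (CT-LCG) and from 11.6 to 16.4 (FT-LCG). The middle bins hold shallow cells, with a median of 1172 UMIs in the CT-LCG bin from 60% to 80% and 1182 in the FT-LCG bin from 40% to 60%, against 12027.5 and 8311 in the first bins.

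**Figure D4:**
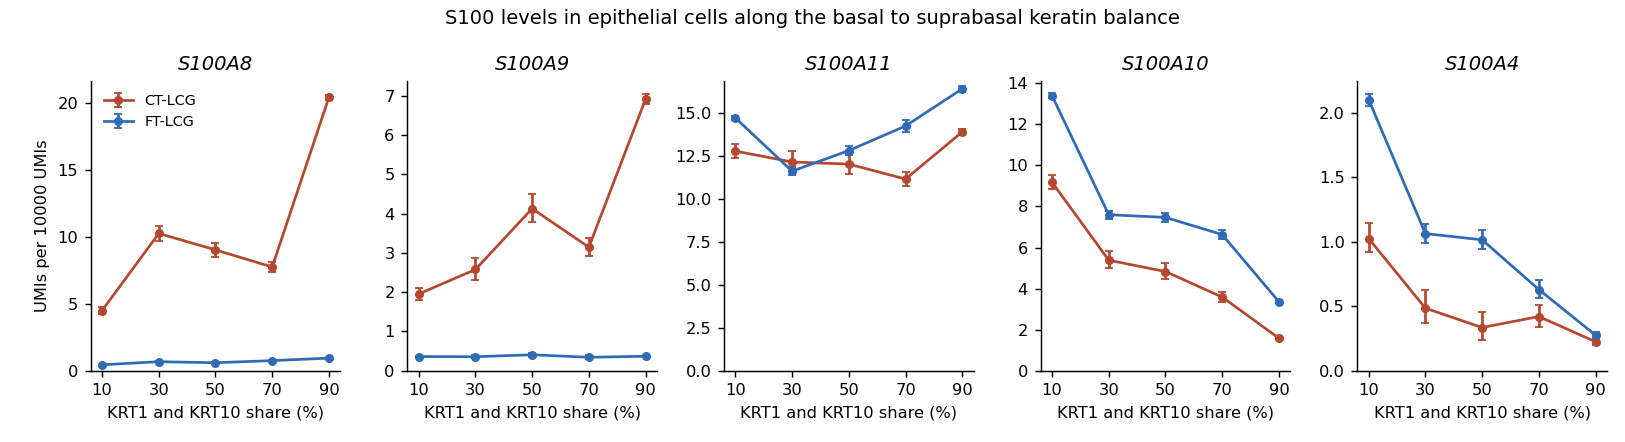
Level of 5 S100 genes (UMIs per 10000 UMIs, linear axis from 0) in epithelial cells binned by the share of KRT1 and KRT10 in the UMIs of KRT5, KRT14, KRT1 and KRT10 (x axis, percent, bin centres), for CT-LCG and FT-LCG; bars are exact Poisson 95% intervals. S100A10 falls from 9.17 to 1.58 and from 13.4 to 3.36 along the axis, while S100A8 of CT-LCG goes from 4.49 to 20.4.

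Outside the epithelium S100A10 was at 5.11 and 9.53 in stromal cells, 1.67-fold and 1.09-fold above the epithelial level. Endothelial S100A10 was at 6.93 (5.87 to 8.13) and 14.9 (14.1 to 15.7), or 8.07 and 9.87 times its free RNA level. Immune S100A10 was at 37.6 (36.2 to 39.0) for CT-LCG and 17.7 (17.0 to 18.4) for FT-LCG, so the immune over epithelial folds were 12.3 and 2.02, the latter at the edge of the 2-fold limit. S100A4 and S100A10 were the 2 members of 6 past that limit in both libraries, against 9.80% of 2601 tested genes, and S100A4 alone passed with a gate on marker genes or with cells of at least 1000 genes, where the FT-LCG fold of S100A10 was 1.56 and 1.98. Mast cell-like cells had S100A10 at 68.5 (65.7 to 71.4) in 64 CT-LCG cells and 33.8 (29.0 to 39.2) in 18 FT-LCG cells. T cell-like cells had 13.3 and 24.8 and macrophage or dendritic-like cells 11.5 and 15.7. In FT-LCG the macrophage or dendritic-like level was near that of the basal-like cluster 1, while the T cell-like and mast cell-like levels were above it. FT-LCG immune cells also carried KRT14 at 1.36 times the epithelial level. The summed immune level was higher in CT-LCG although 2 of the 3 immune classes were higher in FT-LCG, and the mast cell-like share of the cells differed between the libraries. NINJ1, the lncRNA LOC102182682 and ARPC1B were most like S100A10 (r = 0.91, 0.89 and 0.86).

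S100A4 was the stromal and immune member. It was at 0.357 (0.334 to 0.380) and 1.25 (1.22 to 1.27) in epithelial cells of CT-LCG and FT-LCG, at 42.9 (41.1 to 44.8) and 81.5 (79.1 to 83.8) in stromal cells, at 5.36 (4.43 to 6.43) and 11.96 (11.3 to 12.7) in endothelial cells and at 27.1 (25.9 to 28.4) and 48.2 (47.2 to 49.3) in immune cells. Stromal cells were 120.4-fold and 65.4-fold above epithelial cells and immune cells 76.1-fold and 38.7-fold above them. Over the alternatives the stromal folds ranged from 43.2 to 317.3 and from 4.57 to 83.7, the latter being lowest with the gate on marker genes. S100A4 was the 1 member of 6 at least 2-fold higher in stromal than in epithelial cells in both libraries, against 13.1% of 2726 tested genes. By class, T cell-like cells had the most, at 56.6 (53.6 to 59.8) and 108.5 (104.4 to 112.7). Macrophage or dendritic-like cells had 38.3 (35.3 to 41.4) and 38.5 (37.4 to 39.6), alike within their intervals as a whole cluster. Without its cells with a neutrophil marker, the cluster was at 44.0 (40.6 to 47.6) and 38.7 (37.6 to 39.8). These intervals lie apart but do not cover differences between cells. In CT-LCG 1 cell held 111 of the cluster's 624 S100A4 UMIs, and the top 3 cells held 50.2%. The cluster's cells with CD207, a listed macrophage or dendritic marker, were at 43.1 and 52.7, and those without at 27.5 and 21.6. In CT-LCG the cells without CD207 held 245 of the cluster's 260 S100A8 UMIs, so they include cells with a neutrophil marker. Those cells held no S100A4, and the CT-LCG gap was not recomputed without them. Median depths with and without CD207 also differed, at 9954 and 2208 UMIs in CT-LCG and 11458.5 and 4513 in FT-LCG. Mast cell-like cells had 2 UMIs in each library, 0.0625 (0.00757 to 0.226) and 0.389 (0.0471 to 1.40), so the immune classes split into T cell-like and macrophage or dendritic-like cells with S100A4 and mast cell-like cells with almost none.

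Thinned shares of cells with a UMI of S100A4 were 39.2% (29.4 to 49.6) and 66.7% (56.8 to 75.6) in stromal cells, 23.5% and 33.8% in endothelial cells and 5.32% and 10.8% in epithelial cells, and the unthinned stromal shares were 53.5% and 76.1%. The endothelial level was at least 38.7 times the free epithelial RNA level of S100A4 in CT-LCG, where that level is under 3 counts, and 55.6 times it in FT-LCG. It was 0.125 and 0.147 of the stromal level, where 7 collagen and other stromal genes had medians of 0.00472 and 0.00207 of theirs, with VIM, which endothelial cells express, among them. The top 10% of endothelial cells held 80.2% and 78.6% of the S100A4 UMIs there. In epithelial cells S100A4 was at 0.00831 and 0.0153 of its stromal level, beside medians of 0.000971 and 0.000812 for the 7 stromal genes. Its FT-LCG over CT-LCG fold in epithelial cells was 3.49 in summed UMIs, 2.12 as a mean over cells and 5.55 with 10% free RNA subtracted. FT-LCG was higher in 15 of the 16 clusters compared. In the exception, cluster 9, 1 cell held 16 of the 37 CT-LCG UMIs, and without it the level there was 1.08 beside 1.36 in FT-LCG.

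The stromal S100A4 differed between cells with and without papilla genes. In the 67 CT-LCG stromal cells with a UMI of at least 1 dermal papilla marker it was at 14.5 (13.3 to 15.9), and in the 32 without one at 113.1 (107.6 to 118.9). In FT-LCG 14 cells with such a UMI had 53.7 (49.0 to 58.6) and 103 without had 86.8 (84.2 to 89.5). Cells without papilla genes were higher in both libraries. Among them the summed CT-LCG level was above that of FT-LCG, opposite to the whole stromal compartment, but this CT-LCG level rests on few cells. The 10 CT-LCG stromal cells with the most S100A4 held 81.1% of its 2076 UMIs there, and the cells with papilla genes held 501 in all. In FT-LCG the top 12 cells held 43.3%. The intervals do not cover differences between cells. S100A10 followed in CT-LCG, at 2.00 (1.56 to 2.54) with and 12.8 (10.98 to 14.8) without papilla genes, and did not in FT-LCG, at 9.66 and 9.50. The median depths of the gated cells were 4895 and 3665.5 UMIs in CT-LCG and 5354.5 and 3769 in FT-LCG. Cells with at least 3 smooth muscle markers had S100A4 at 92.6 in CT-LCG (7 cells) and 87.9 in FT-LCG (31 cells). One CT-LCG stromal cell held 19.7% of the compartment's S100A4 UMIs, and without it the level was 35.6. Whether that cell, with 409 UMIs, lay among the cells with or without papilla genes was not determined. The CT-LCG level of either gate may rest in part on it. These gates were chosen after the clusters were seen. CRIP1, SEPT6 and CD99 were the genes most like S100A4 (r = 0.96, 0.90 and 0.89).

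S100A6 was almost absent from the matrix. It had 0 UMIs in the kept CT-LCG cells and 5 in the kept FT-LCG cells, of which 4 were in epithelial cells and 1 in an endothelial cell. The CT-LCG stromal compartment, with 0 of 483641 UMIs, allows a level of up to 0.0620 by 3 counts, and the FT-LCG stromal compartment, with 0 of 564601, up to 0.0531. No fold was computed for S100A6. Its partner gene CACYBP was at 1.98 and 1.62 in epithelial cells and at 1.92 and 2.13 in stromal cells. Whether the near absence of S100A6 comes from its gene model in the annotation used for counting was not tested.

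**Figure D5:**
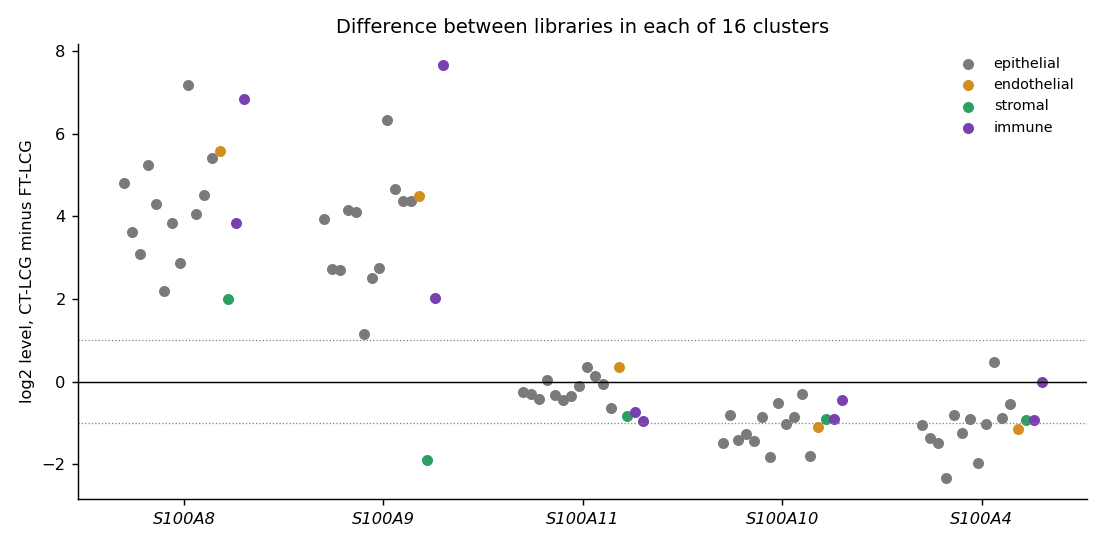
Difference between the libraries (log2 level in CT-LCG minus log2 level in FT-LCG) for 5 S100 genes, 1 point for each of 16 clusters, coloured by compartment; dotted lines mark 2-fold. All 16 points of S100A8 lie above the 2-fold line and all 16 of S100A10 lie below 0, and the stromal point of S100A9 at -1.89 is the 1 that lies opposite to the others of that gene.

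Cluster by cluster, S100A8 was at least 2-fold higher in CT-LCG in all 16 clusters, from a log2 difference of 2.00 in the fibroblast-like cluster 13 to 7.17 in cluster 8 (granular layer-like). S100A9 was at least 2-fold higher in CT-LCG in 15 of 16, up to 7.67 in cluster 15, with cluster 13 at -1.89. In cluster 13, 2 FT-LCG cells held 76.9% of the FT-LCG UMIs of S100A9. S100A11 was within 2-fold in all 16, from -0.95 to 0.36. S100A4 ranged from -2.34 in the basal-like cluster 3 to 0.46 in cluster 9, and S100A10 from -1.83 to -0.30. Endothelial S100A8, as a point value below its free RNA level in both libraries, was 48.0-fold higher in CT-LCG. That fold sets 56 UMIs in 61 cells against 5 UMIs in 161 cells, so its size is uncertain. The keratins KRT5 and KRT14 were higher in FT-LCG in all 16 clusters too, and KRT1 was higher in CT-LCG in 14 of 16. The part of the epithelial composition and of free RNA in these differences was not tested.

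Of the 10 other S100 genes, 3 were at least 2-fold higher in epithelial than in stromal cells in both libraries (S100A7A, S100A14 and S100A16) and 3 the other way (S100B, S100A13 and S100A1), beside 7.89% and 13.1% of all tested genes. S100B had 4 and 6 stromal UMIs and S100A1 had 10 and 21, so their calls rest on few counts. Tested genes had a mean level of at least 0.5, which S100B and S100A1 did not reach, so the counts and the shares differ in threshold. S100A7A, a relative of psoriasin, was at 95.4 and 21.3 in epithelial cells, 4.48-fold higher in CT-LCG, the same library as S100A8 and S100A9. S100A2, a gene of basal keratinocytes, was at 25.2 and 52.3, 2.08-fold higher in FT-LCG as S100A10 was. S100A13 was at 3.68 and 4.48 in stromal cells, 35.8-fold and 8.98-fold above the epithelial level, the same side as S100A4. S100A14 was at 12.54 and 12.3 and S100A16 at 4.92 and 5.91 in epithelial cells, each within 2-fold between the libraries, as S100A11 was. The median log2 difference between CT-LCG and FT-LCG in epithelial cells was -0.66 over the 9 other S100 genes with a value and 0.05 over all tested genes.

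Of the 12 partner and receptor genes, none was at least 2-fold higher in epithelial than in stromal or in immune cells in both libraries, 3 were higher in stromal cells (ANXA6, ANXA11 and CD36) and 4 in immune cells (ANXA1, ANXA5, ANXA6 and ANXA11). The shares of all tested genes were 7.89% and 6.50% for the epithelial side, 13.1% for stromal and 9.80% for immune cells, so a count of 0 among 12 is near the background. CD36 had 11 and 8 stromal UMIs. ANXA6, ANXA11 and CD36 lay below the mean level of 0.5 asked of tested genes, so these counts and shares differ in threshold too. ANXA2, the partner of S100A10, was at 11.7 and 13.8 in epithelial cells and at 8.93 and 13.8 in immune cells, so it did not share the immune excess of S100A10. ANXA1, the partner of S100A11, was at 9.37 and 6.60 in epithelial and 20.7 and 13.9 in immune cells. Of the listed genes for receptors that bind calprotectin, AGER stayed at or below 0.053 and TLR4 at or below 0.185 in every compartment of both libraries, while BSG, which encodes basigin, was at 3.91 and 4.87 in epithelial and at 5.25 and 5.14 in stromal cells. Of the 5 stress and alarmin genes present, none was at least 2-fold higher in CT-LCG epithelial cells and 2 were higher in FT-LCG, KRT6A at 1.12 and 3.94 and LCN2 at 0.0272 and 0.0826, beside 7.96% and 4.10% of all tested genes, so the 0 of 5 is near the background. Only KRT6A among the 5 reached the mean epithelial level of 0.5 asked of tested genes. KRT16, KRT17, IL36G and SPRR1A were not analysed here.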

How the data were processed

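Skin cells of 1 coarse type and 1 fine type goat were counted by 10x 3' sequencing. The deposited values are raw UMI counts that the authors made with Cell Ranger 3.0.2 (file header), both libraries in 1 matrix. A deposited cell table gives the library of each kept cell (other values, names only). The submitters' processing notes also name bcl2fastq and Seurat 3.1.1. Those notes list the human and mouse builds GRCh38 and GRCm38 for these goat data, with no role. Of the 27137 feature names, 27103 are symbols of the RefSeq goat table (ARS1.2). The annotation behind the counts is not given in the sources used here. Together the kept cells held 27890472 and 85400323 UMIs.

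Cells were log-normalized to 10000 UMIs. The 2000 most variable genes without S100 genes, 10 principal components, Harmony (rewritten in numpy), 20 neighbours and Leiden resolution 0.7 gave 18 clusters. They were named from fixed marker lists, with at least 3 markers, and a non-epithelial compartment needed its markers at least 2-fold above the other clusters. That last rule was added after the clusters had been seen. Clusters with under 20 cells in a library (mast cell-like and sebocyte-like) were left out of comparisons over clusters and of the likeness. Levels are UMIs summed per group and library, per 10000. A count at or below 3 was set to a floor of 3 in folds. Genes entered the background shares at a mean level of at least 0.5. Counts within the gene lists had no such limit. Likeness was Pearson r on log2(level + 0.1), not centred by library, among the 8140 genes that reached 200 UMIs per library. Scrublet called 0 doublets, so none were removed. Instead, the 5% of cells with the highest scores (173 and 481) were left out as an alternative.

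The text names the 6 members, the other S100 genes, fixed partner, stress and comparison lists and the 3 genes most like each member. Neutrophil, muscle and papilla gates use the fixed marker lists. The members and lists were chosen with earlier results of these data known. The alternatives were clustering without Harmony, 20 components, resolution 0.4, another seed, a gate on markers, at least 1000 genes, thinning to 1000 UMIs, means over cells, 10% free RNA subtracted, a 1.5-fold limit and each library alone. The folds were tested on simulated data. The analysis used Python 3.11.15, scanpy 1.11.5, leidenalg 0.10.2, matplotlib 3.10.9, pandas 2.3.3, numpy 2.4.6 and scipy 1.17.1.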

Additional observations from a re-analysis of the deposited data

Results flagged for a closer look

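The barcodes outside the table of kept cells, which have at most 500 genes each, also held 5 of the 6 members above the limit that a count of 0 allows, while S100A6 had 0 UMIs in them. In the 2659 such CT-LCG barcodes S100A4 was at 1.52, S100A8 at 13.1, S100A9 at 5.29, S100A10 at 3.38 and S100A11 at 13.0 UMIs per 10000. In the 1589 such FT-LCG barcodes S100A4 was at 3.58, S100A8 at 0.642, S100A9 at 0.401, S100A10 at 7.97 and S100A11 at 13.1. These levels lie near the epithelial levels of the same library for S100A8, S100A9, S100A10 and S100A11, and above them for S100A4. S100A9 had a log2 difference between CT-LCG and FT-LCG of -1.89 in stromal cells, opposite to the 3.83 in epithelial cells, and this difference was not tested.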

How the results depend on the processing

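Of 115 recomputed counts of members, 99 stayed within 1.5 times the main count, and of 230 recomputed log2 ratios of single members (between the libraries, or between compartments as the mean of both libraries) 140 moved by less than the half-width of their 95% counting interval and 90 by more. Under the 14 alternatives with values per library, no ratio behind a compartment call changed sign in either library. S100A9, called in neither direction, ranged from -2.69 to 3.03 for epithelial over stromal cells and from -0.01 to 2.79 for epithelial over immune cells. The ends of the stromal range are the main values of FT-LCG alone and CT-LCG alone, so that range reflects the difference between the libraries. Members at least 2-fold higher in epithelial than in stromal cells (1) became 2 after thinning, with means over cells, with 10% free RNA subtracted and at 1.5-fold, and 3 without the cells with 3 or more smooth muscle markers. With the gate on markers the count stayed at 1, but the member was S100A8 in place of S100A11. Members higher in epithelial than in immune cells (1) became 0 with the gate on markers, after thinning and with means over cells, and 2 with at least 1000 genes, at 1.5-fold and without the neutrophil marker cells. Members higher in immune cells (2) became 1 (S100A4) with the gate and with at least 1000 genes. Members above their free RNA level in endothelial cells (2) became 3, with S100A11 added, with 10% free RNA subtracted and at 1.5-fold. With each library alone, the counts ranged from 1 to 3 for epithelial over stromal, from 1 to 2 for stromal over epithelial and from 1 to 2 for epithelial over immune cells. The alternatives that leave out marked cells or weight the immune classes equally were chosen after seeing the data. The cause of these moves was not tested. The epithelial difference between CT-LCG and FT-LCG ranged from 4.37 to 4.57 in log2 for S100A8, from 3.601 to 3.855 for S100A9, from -1.56 to -1.39 for S100A10 and from -2.47 to -1.09 for S100A4. No paired analysis was possible because each fibre type has 1 library and no test was run. Endothelial, stromal and immune values rest on 61 to 161 cells, and intervals leave out differences between goats.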

Other observations

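Along chromosome 3 in the RefSeq order (ARS1.2), some neighbouring S100 loci shared the direction of their epithelial difference between the libraries. S100A9, LOC102169149, S100A8 and S100A7A follow each other with 1 little-expressed locus between the last 2, and all 4 were higher in CT-LCG, by 14.2-fold, 25.5-fold, 23.5-fold and 4.48-fold. S100A5, S100A4, S100A3 and S100A2 come next after S100A6, and all 4 were higher in FT-LCG, by 3.20-fold, 3.49-fold, 1.44-fold and 2.08-fold. S100A13 and S100A1 at the far end were also higher in FT-LCG, by 4.86-fold and 3.76-fold, while S100A16 and S100A14 between them differed by 1.20-fold and 1.02-fold. S100A5, S100A3 and S100A1 were below 0.15 UMIs per 10000 in epithelial cells of both libraries. This order was looked at after the values were seen, and no test was run on it.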
